A study of Zea mays with 6 samples.

Results

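The genes described here are 8 maize genes linked to late embryogenesis abundant (LEA) proteins, out of 39634 genes listed in each library. GRMZM2G472248, GRMZM2G146004, GRMZM2G045664, GRMZM2G412436 and GRMZM2G152781 were taken from the study's own list of LEA genes whose transcripts increased in the first dehydration and decreased again in the third, a class written [+/-]. The study counts more LEA genes than these 5 in that class. It also counts LEA genes that were induced in the first dehydration and kept a similar level in the third. GRMZM2G010868, a gene for a lipid transfer protein, was added because the study discusses it next to the LEA genes as one without a response to the first stress. GRMZM2G072890 and GRMZM2G000777 were added because the deposited gene description calls them LEA proteins and because they were expressed in leaves. The measured values therefore entered the choice of the first 6 genes. For the 5 listed [+/-] genes, the comparisons of S1 with W and of S3 with S1 are given as descriptions, with no test and with nothing read from whether they pass a threshold, and so is the comparison of S1 with W for GRMZM2G010868.

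LEA proteins are mostly small, very hydrophilic proteins that were first recognised in seeds at the stage when the embryo dries out. They also accumulate in leaves and roots that lose water, where they are thought to protect membranes and other proteins. They fall into families that share little sequence: dehydrins carry lysine-rich segments and often respond to abscisic acid, group 3 proteins are built from a short repeated amphipathic motif, the LEA3 family contains small proteins such as Arabidopsis SAG21, and the LEA14 type is atypical because it is more hydrophobic and folds into a stable structure.

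RNA was sequenced from leaves of seedlings of the maize inbred line B73 under 3 conditions with 2 libraries each. W plants were kept watered, S1 plants were sampled at their first dehydration, which was 2 h of air drying, and S3 plants at the third dehydration, after air drying had alternated with 22 h of recovery in water. The seedlings were 2 weeks old when taken out of soil, and stood overnight with their roots in water before the first drying. S3 plants were sampled later than S1 plants, and the methods do not state when W leaves were taken. Repeated drying thus cannot be told apart from age and time out of soil in the comparisons with S3. No transgene, mutation or chemical was involved, and each treatment point was made up of several plants. The 2 libraries of a condition were independent biological samples, and replicate 1 and replicate 2 differed in read length by 1 base in every condition.

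The level of a transcript is given as FPKM, fragments mapped to a transcript relative to its length and to the size of the library, so that genes can be compared with each other. Differences between conditions were tested with limma on log2(FPKM + 1), with Benjamini-Hochberg adjustment over 20130 genes that had at least 1 FPKM in at least 2 libraries. A gene was called changed where the adjusted p did not exceed 0.05 and the log2 fold change was 1 or more in either direction. Adding 1 before taking logarithms understates the change of genes below a few FPKM, and simple ratios of mean FPKM are therefore given as well. Each of the 8 genes entered the test, but GRMZM2G412436 passed the filter through its S1 libraries alone, and GRMZM2G152781 through its S1 libraries and W replicate 2.

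Marker genes of green leaves were high in all libraries. Genes described as chlorophyll a-b binding proteins, of which 11 of 13 reached 1 FPKM in every library, summed to 35676 and 21594 FPKM in W, 25618 and 25466 FPKM in S1, and 5900 and 9527 FPKM in S3. Phosphoenolpyruvate carboxylase genes summed to between 1135 and 1818 FPKM in W, between 1567 and 1794 FPKM in S1 and between 185 and 403 FPKM in S3, and the Rubisco small subunit gene was also lowest in S3, at 59.3 and 74.0 FPKM. Of the seed markers, oleosin genes summed to at most 1.75 FPKM, globulin genes to at most 0.0661 FPKM, and 24 zein genes to between 15.6 and 25.1 FPKM in each library, with 1 of them at 1 FPKM or more in every library. Leaf markers thus were lower in S3 than in the other conditions, and the part of this shift in the S3 values below was not tested. In RNA from whole leaves, fewer cells of a type and less RNA per cell cannot be told apart. The median difference between replicates over the tested genes was 0.17 log2 units for W libraries, 0.20 for S1 libraries and 0.23 for S3 libraries.

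The 8 genes did not follow 1 pattern. The 5 listed [+/-] genes peaked in S1 by construction, and the lipid transfer gene peaked in S3, whereas the 2 genes chosen by their description passed the test in no comparison. Set against W, the 5 peaking genes stood in 3 different states in S3: 1 above W, 1 far below W and 3 not distinguished from W by the test.

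**Figure D1:**
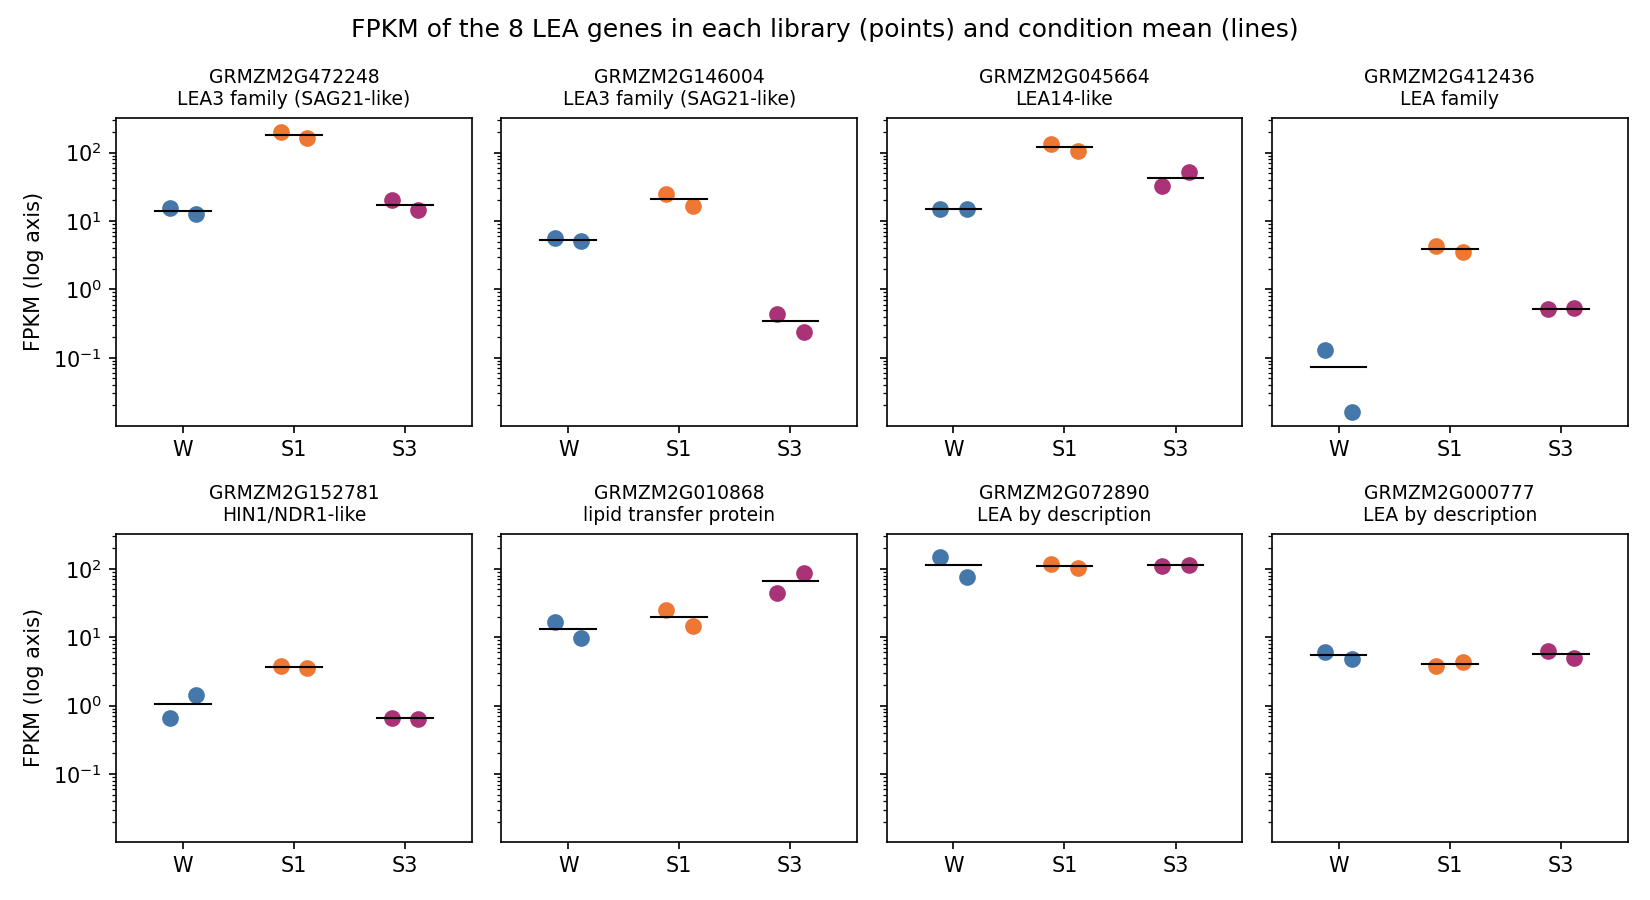
FPKM of each of the 8 genes (1 panel per gene, log axis) in the 2 W, 2 S1 and 2 S3 libraries, shown as points, with the condition mean as a line. GRMZM2G472248 has 1 high condition, S1, while GRMZM2G146004 falls in S3 to 0.442 and 0.237 FPKM, below its W libraries, and GRMZM2G010868 has its highest values in S3.

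The 2 members of the LEA3 family, the family of Arabidopsis SAG21, a small protein linked there to leaf senescence and oxidative stress, shared a peak in S1 and differed in S3. GRMZM2G472248, whose closest Arabidopsis relative is a drought-induced gene, had 15.3 and 12.6 FPKM in W, 204 and 162 FPKM in S1, and 20.3 and 14.5 FPKM in S3. Both S1 libraries stood far above the rest, and the S3 libraries overlapped the W libraries. The S1 mean was 13.1-fold the W mean, and the S3 mean was 10.6-fold lower than the S1 mean. Among all listed genes, GRMZM2G472248 ranked 445 by its mean level in S1, against 7172 in W, and it ranked 6934 in S3.

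In S3 against W, GRMZM2G472248 had a log2 fold change of 0.28 ± 0.21 (SE, n = 2 each) with an adjusted p of 0.325 in limma. The 95% interval of this difference ran from -0.21 to 0.77, so a change of more than 1 log2 unit in either direction lay outside it. Of the increase in mean FPKM between W and S1, 1.98% was left in S3, a value that was 3.68% with S3 replicate 1 alone and 0.277% with S3 replicate 2 alone.

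GRMZM2G146004, whose homology description names SAG21 and, among further hits, a NAD kinase, behaved differently after its S1 peak. It had 5.62 and 5.10 FPKM in W, 25.2 and 16.5 FPKM in S1, and 0.442 and 0.237 FPKM in S3. The S3 libraries lay below both W libraries, and the S1 libraries above them. Its S1 mean was 3.90-fold the W mean and its S3 mean 61.9-fold lower than the S1 mean, where a decrease was required by its choice.

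Set against W, GRMZM2G146004 fell in S3, with a log2 fold change of -2.25 ± 0.22 (SE, n = 2 each) and an adjusted p of 0.000254 in limma. The ratio of means was larger, 15.9-fold, because the S3 values lie below the 1 FPKM added before the logarithm. FPKM values of this gene are whole multiples of a smallest step, and if that step is 1 read, the S3 libraries held 11 and 6 reads, against 139 and 144 reads in W. The counting interval of the S3 to W rate ratio, 0.0630, then ran from 0.0362 to 0.103 (95%, exact, counting error only).

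Within each library, the ratio of GRMZM2G472248 to GRMZM2G146004 was 2.72 and 2.48 for W plants, 8.09 and 9.79 for S1 plants, and 46.0 and 61.2 for S3 plants. The libraries of the 3 conditions did not overlap in this ratio, which was not tested. Both genes belong to the same family, and whether reads were shared between related gene copies could not be checked from FPKM.

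GRMZM2G045664 is of the LEA14 type; its Arabidopsis relative is described as induced by wounding and light stress. It had 14.8 and 14.9 FPKM in W, 134 and 106 FPKM in S1, and 32.6 and 51.4 FPKM in S3. The 3 conditions did not overlap, with S3 between W and S1. The S1 mean was 8.06-fold the W mean, the S3 mean was 2.87-fold lower than the S1 mean, and 25.7% of the increase in mean FPKM between W and S1 was left in S3 (16.7% with S3 replicate 1 alone and 34.6% with S3 replicate 2 alone).

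In contrast to GRMZM2G472248, which had a W mean of similar size, GRMZM2G045664 was higher in S3 than in W, by 1.40 ± 0.23 on the log2 scale (SE, n = 2 each), with an adjusted p of 0.00267 in limma. The ratio of mean FPKM was 2.81, and the difference between these genes was not tested. Its S3 libraries differed from each other more than those of W did, and the fold change was 1.72 without S3 replicate 1 and 1.07 without S3 replicate 2.

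GRMZM2G412436, which matches an LEA family protein of Arabidopsis by homology, was almost silent in watered leaves. It had 0.130 and 0.0162 FPKM in W, 4.34 and 3.48 FPKM in S1, and 0.516 and 0.526 FPKM in S3. The conditions were fully separated, W lowest and S1 highest. Read as whole reads, these values are 7 reads and 1 read for the W libraries, 240 and 179 reads for S1, and 28 and 29 reads for S3. The S1 mean was 53.6-fold the W mean, and the S3 mean was 7.55-fold lower than the S1 mean.

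GRMZM2G412436 was below the filter minimum of 1 FPKM in all W and S3 libraries, and whether it was called higher in S3 than in W depended on how low values were treated, so that neither outcome is firm. On the log2(FPKM + 1) scale the difference was 0.50 ± 0.18 (SE, n = 2 each) with an adjusted p of 0.0565 in limma, which missed both thresholds. With 0.1 in place of 1 added to each value the difference was 1.92 with an adjusted p of 0.0112, which passed them, and the adjusted p ranged between 0.0112 and 0.224 over 17 alternative settings. The ratio of means was 7.09, and the rate ratio from reads was 7.48, with an interval between 3.55 and 18.1 that covers counting error only and not the spread between the W libraries.

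GRMZM2G152781 is named YLS9 in the deposited description, after an Arabidopsis gene of yellow leaves, and belongs to the NDR1 and HIN1-like proteins, which are annotated as LEA hydroxyproline-rich glycoproteins and are known from responses to pathogens. It had 0.659 and 1.44 FPKM in W, 3.76 and 3.56 FPKM in S1, and 0.655 and 0.645 FPKM in S3. S1 stood above the rest, and the S3 libraries lay just below the lower W library. The S1 mean was 3.48-fold the W mean, and the S3 mean was 5.67-fold lower than the S1 mean.

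In S3 against W the difference of GRMZM2G152781 was -0.29 ± 0.21 on the log2 scale (SE, n = 2 each) with an adjusted p of 0.313 in limma and a 95% interval from -0.79 to 0.21. The W libraries of this gene differed by more than S3 and W did.

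The 2 genes that the deposited description calls LEA proteins, with no family named, did not pass the test in any comparison. GRMZM2G072890 had the highest W level of the 8 genes, at 147 and 77.2 FPKM in W, 118 and 103 FPKM in S1, and 112 and 114.5 FPKM in S3. The W libraries enclosed all others. On the log2 scale it differed by 0.05 in S1 against W (95% interval from -0.62 to 0.72, adjusted p of 0.929), 0.03 in S3 against S1 (adjusted p of 0.95) and 0.08 in S3 against W (95% interval from -0.59 to 0.75, adjusted p of 0.853), all in limma. The spread between the W libraries sets the width of these intervals: S3 against W was 0.54 without W replicate 1 and -0.38 without W replicate 2.

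GRMZM2G000777 was expressed at a lower level, with 6.19 and 4.76 FPKM in W, 3.84 and 4.38 FPKM in S1, and 6.27 and 4.94 FPKM in S3. Its S1 libraries lay below all others, by a margin that did not pass the test. The log2 fold change of S1 against W was -0.33 (95% interval from -0.78 to 0.11, adjusted p of 0.278), that of S3 against S1 was 0.36 (adjusted p of 0.179) and that of S3 against W was 0.02 (95% interval from -0.42 to 0.47, adjusted p of 0.940), all in limma. A change of 1 log2 unit lay outside the interval of GRMZM2G000777 in both comparisons with W, and outside those of GRMZM2G072890 as well.

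GRMZM2G010868 is described as a phospholipid transfer protein, one of the small secreted proteins that bind lipids and take part in building the leaf cuticle, and is not an LEA protein by its description. It had 16.5 and 9.91 FPKM in W, 25.2 and 14.4 FPKM in S1, and 44.7 and 87.7 FPKM in S3. The S1 libraries overlapped those of W, while both S3 libraries lay above the other 4. The S1 mean was 1.5-fold the W mean and the S3 mean 4.98-fold the W mean.

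In S3 against W, GRMZM2G010868 rose by 2.19 ± 0.39 on the log2 scale (SE, n = 2 each), with an adjusted p of 0.00336 in limma. In S3 against S1 the difference was 1.65 ± 0.39 with an adjusted p of 0.0135, and this call was lost without S1 replicate 2, where the difference was 1.27 with an adjusted p of 0.0880, and without S3 replicate 2, where it was 1.18 with an adjusted p of 0.0516. The replicates of this gene were far apart in every condition, and its standard error was the largest of the 8 genes.

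**Figure D2:**
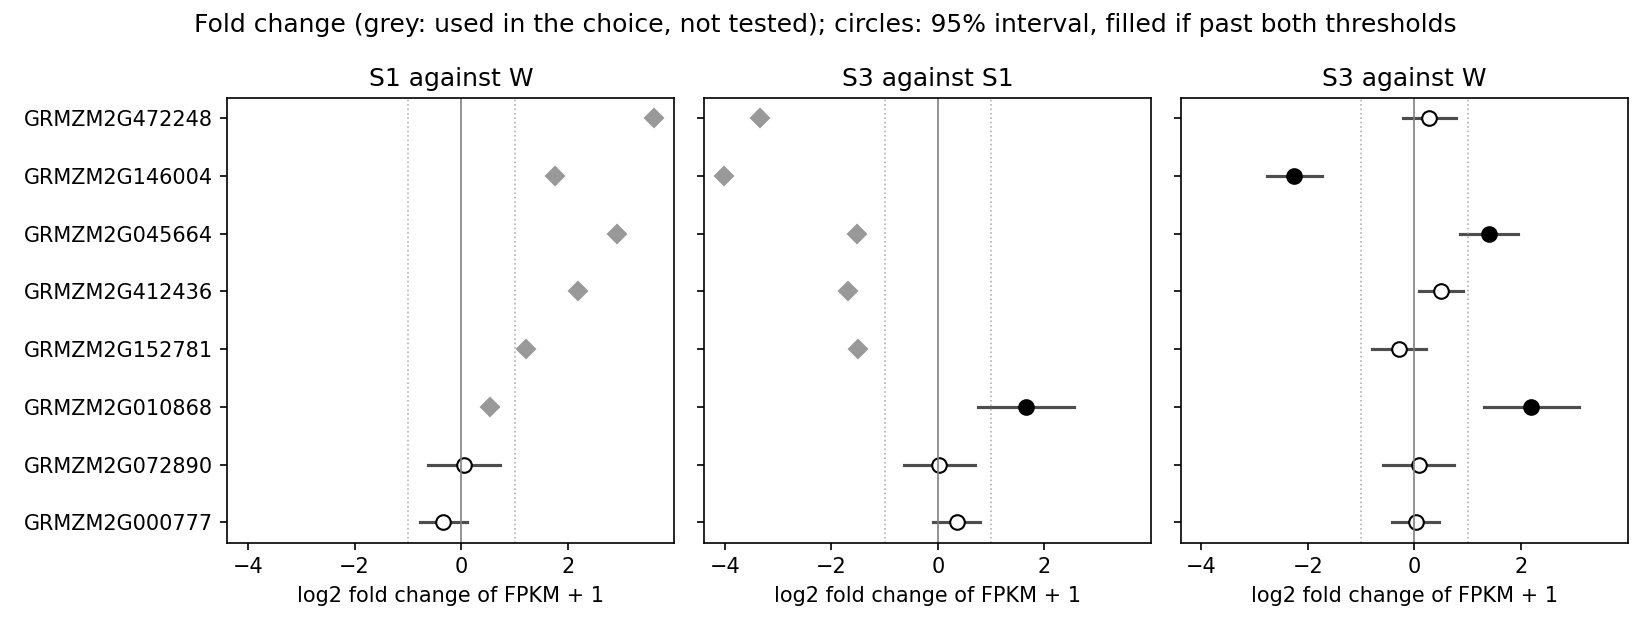
Log2 fold change of FPKM + 1 (x axis) for each of the 8 genes (rows) in S1 against W, S3 against S1 and S3 against W (panels), with dotted lines at a change of 1 in size. Grey diamonds are values that entered the choice of the gene and were not tested, circles carry the 95% interval from limma and are filled where both thresholds were passed, as for GRMZM2G010868, GRMZM2G045664 and GRMZM2G146004 in S3 against W.

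In the same fit, 7.51% of all tested genes were called higher in S1 than in W, 1.54% lower and 9.04% in either direction. This comparison entered the choice of the 5 listed [+/-] genes and of GRMZM2G010868, so their calls are not counted. GRMZM2G072890 and GRMZM2G000777 were not called. In S3 against S1, 9.22% of all tested genes were called lower, 9.17% higher and 18.4% in either direction. The [+/-] class required a decrease there, so calls of its 5 genes are again not counted. GRMZM2G010868 was called higher, and GRMZM2G072890 and GRMZM2G000777 were not called.

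The comparison of S3 with W was not used to choose any of the genes, although its libraries also enter the comparisons that were. Of the 8 genes, 2 were called higher in S3, GRMZM2G045664 and GRMZM2G010868, and 1 was called lower, GRMZM2G146004. Over all tested genes, 13.3% were called higher, 8.7% lower and 22% in either direction, so that 3 of 8 members stood beside 4424 of 20130 genes. The excess of higher calls among all genes turned round after upper-quartile scaling, with 1988 called higher and 2175 lower, while the calls of the 8 genes did not change. The S3 and W libraries did not overlap for 5 of the 8 genes, with S3 higher for 3 and lower for 2, a situation found for 74% of all tested genes, made up of 46.5% with S3 higher and 27.4% with S3 lower. The median log2 fold change was 0.18 over the 8 genes and 0.16 over all tested genes.

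**Figure D3:**
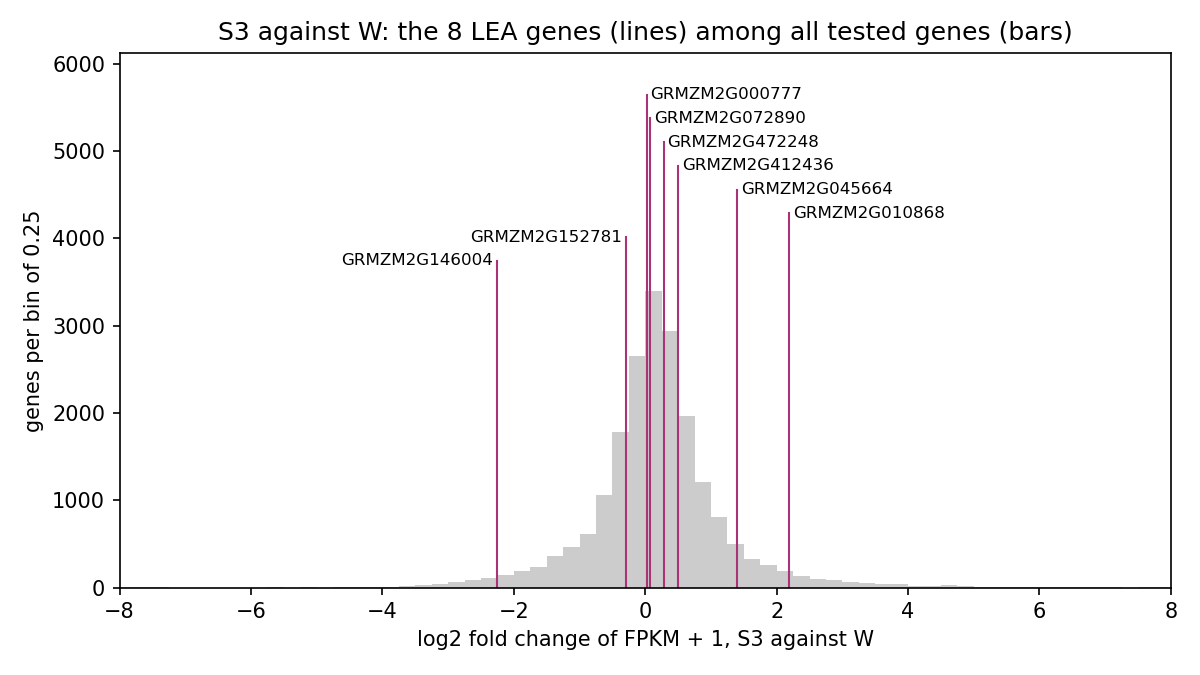
Number of tested genes (y axis) per bin of 0.25 of the log2 fold change of FPKM + 1 in S3 against W (x axis, grey bars), with a line at the value of each of the 8 genes, whose heights only separate the labels. GRMZM2G146004 at -2.25 lies far to the left of the main body, GRMZM2G045664 at 1.40 and GRMZM2G010868 at 2.19 to its right, and the other 5 genes lie between -0.29 and 0.50.

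By position in the distribution of all tested genes, 1.87% of them had a lower fold change of S3 against W than GRMZM2G146004, whereas 92.1% were below GRMZM2G045664 and 96.7% below GRMZM2G010868. The value for GRMZM2G472248 was near the middle, with 57.9% of genes below it. Scaling affected the centre of this comparison: the median of all tested genes was 0.16 with FPKM as deposited and -0.04 after upper-quartile scaling. Relative to that median, GRMZM2G146004 stood at -2.41 and -2.34, GRMZM2G045664 at 1.24 and 1.21, and GRMZM2G010868 at 2.04 and 2.01 under these 2 scalings. The small values of GRMZM2G072890 and GRMZM2G000777 changed sign with upper-quartile scaling, to -0.16 and -0.18, and neither passed the test.

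Added up, the 8 genes gave 206 and 126 FPKM in W, 518 and 413 FPKM in S1, and 218 and 274 FPKM in S3. The listed [+/-] genes were chosen for a peak in S1. The S1 peak of the sum, and their larger share of it there, thus follow from the choice. The S3 sums lay between those of S1 and W without overlap, although the lower S3 library was close to the higher W library. GRMZM2G010868, not an LEA protein by its description, is part of these sums. With this gene left out, both S3 sums would lie between those of the W libraries. The makeup of the sum of all 8 genes also changed between conditions. GRMZM2G072890 alone held 71.3% and 61.3% of the sum in W, while it held 22.8% and 25.0% of that in S1, and 51.5% and 41.7% of that in S3.

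In S1 the largest share came from GRMZM2G472248, with 39.4% and 39.2%, followed by GRMZM2G045664 with 25.8% and 25.6%. In S3 the share of GRMZM2G472248 was 9.34% and 5.29%, close to its 7.41% and 10.0% in W. The share of GRMZM2G010868 was 20.6% and 31.9% in S3, against 8.0% and 7.87% in W. GRMZM2G045664 held 15.0% and 18.7% of the S3 sum, below its shares in S1.

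**Figure D4:**
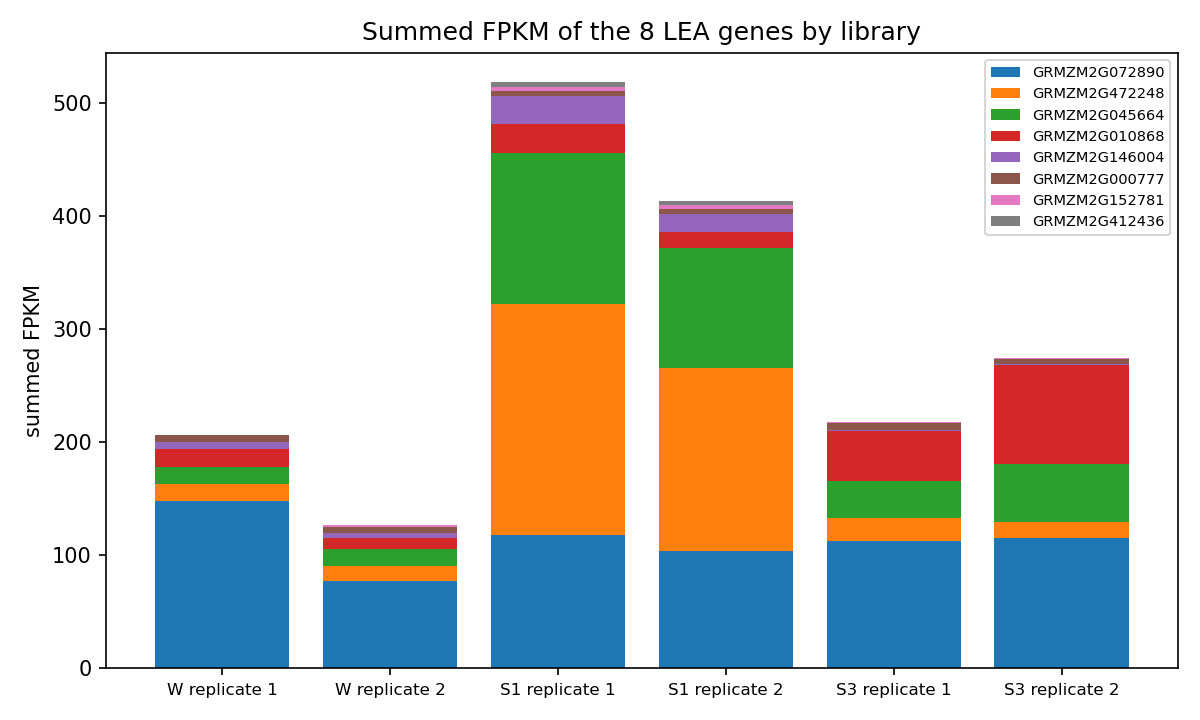
Summed FPKM of the 8 genes (y axis) in each of the 6 libraries, with each gene as a segment of the bar. The S1 bars reach 518 and 413 FPKM, mostly from GRMZM2G472248 and GRMZM2G045664, both chosen for a peak in S1. GRMZM2G072890 is the largest segment of both W and both S3 bars.

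A further 9 genes are described as LEA proteins or dehydrins, and the 4 of them that entered the test were all dehydrins. The other 5 stayed below 1 FPKM in every library, and GRMZM2G025857, described as LEA protein D-34, was listed at 0 in all of them. In S1 against W, 3 of the 4 dehydrins were called higher, beside 7.51% of all tested genes, and in S3 against W again 3, beside 13.3%. In S3 against S1, 1 was called higher, beside 9.17% of all tested genes, and 2 lower, beside 9.22%. The 3 dehydrins named first below were picked because they were called in S3 against W without overlap. Their difference there was set by the choice, and the same S3 libraries enter S3 against S1.

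GRMZM2G079440 encodes the dehydrin DHN1, also known as RAB-17, a classic abscisic acid-responsive protein of maize. It had 0.674 and 0.434 FPKM in W, 19.7 and 8.61 FPKM in S1, and 122 and 188 FPKM in S3, with no overlap between conditions. It rose again in S3 against S1, by 3.42 ± 0.36 on the log2 scale (SE, n = 2 each, adjusted p of 0.000533 in limma), where none of the 5 [+/-] members could by their choice.

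GRMZM2G373522, described as a dehydrin, had 11.7 and 22.8 FPKM in W, 1473 and 756 FPKM in S1, and 798 and 924 FPKM in S3. Its S3 libraries lay between those of S1, and the difference of S3 against S1 was -0.31 ± 0.39 (adjusted p of 0.565 in limma). GRMZM2G147014, described as dehydrin COR410 after a cold-regulated protein of wheat, had 3.56 and 4.84 FPKM in W, 611 and 321 FPKM in S1, and 117 and 223 FPKM in S3. It was lower in S3 than in S1, by -1.46 ± 0.38 (adjusted p of 0.0200 in limma). Its log2 fold change of S3 against W, 4.97, is a description, since the choice required a difference there.

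GRMZM2G169372, described as dehydrin 13, was the dehydrin not called in either comparison with W, and the one with a high level in watered leaves, at 713 and 482 FPKM in W, 1486 and 1159 FPKM in S1, and 520 and 794 FPKM in S3. The S3 libraries overlapped those of W. Both S1 libraries were above the rest, but the log2 fold change of S1 against W, 1.16 ± 0.34, had an adjusted p of 0.0565 in limma, and that of S3 against W was 0.12 ± 0.34 with an adjusted p of 0.798. In S3 against S1 it was called lower, by -1.04 ± 0.34 with an adjusted p of 0.0458. It was named after its values were seen.

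Genes with related descriptions gave the following counts. The gene named from a list is the one with the largest change of S3 against W among those called there without overlap. Its difference between S3 and W was thus set by the choice. Of 11 further genes described as lipid transfer proteins, 5 were tested, and 4 of these were called higher in S3 than in W, beside the 13.3% of all tested genes. Their median log2 fold change was 1.45, and 3 of the 5 were called higher in S3 than in S1, beside 9.17% of all tested genes. The one with the largest change was GRMZM2G387360, which had 46.9 and 34.4 FPKM in W, 26.7 and 58.8 FPKM in S1, and 1443 and 615 FPKM in S3, a difference of 4.51 ± 0.47 in S3 against W (SE, n = 2 each, adjusted p of 0.000319 in limma). Its S1 and W libraries overlapped, as those of GRMZM2G010868 did, while its separation of S3 from W was required by the choice.

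Of 12 further HIN1 and NDR1-like genes, the family of GRMZM2G152781, 4 were tested, and 0 were called by limma in any of the 3 comparisons. Over all tested genes, 9.04% were called in either direction in S1 against W, 18.4% in S3 against S1 and 22% in S3 against W. In each comparison, 1 of the 4 had an unadjusted p under 0.05 in limma. With only 4 genes tested, nothing is read from these counts. Their log2 fold changes lay between 0.11 and 0.44 in S1 against W.

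Abscisic acid (ABA) is the hormone that turns on many LEA genes in drying tissue. Of 19 genes with ABA or protein phosphatase 2C in their description, 14 were tested: 6 were called higher in S1 against W (7.51% of all tested genes) and likewise 6 in S3 against W (13.3% of all), while 3 were called higher (9.17% of all) and 1 lower (9.22% of all) in S3 against S1. GRMZM2G106622, an ABA-responsive protein by its description, had 1.16 and 1.19 FPKM in W, 20.3 and 10.4 FPKM in S1, and 55.9 and 62.4 FPKM in S3. It was called higher by limma at both steps, by 2.84 ± 0.27 in S1 against W (adjusted p of 6e-04) and by 1.93 ± 0.27 in S3 against S1 (adjusted p of 0.00175).

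The 3 genes whose descriptions matched enzymes for the synthesis of small protective compounds, sugars or proline, were all tested. Of these, 2 were called higher in S1 against W, 2 lower in S3 against S1 and 2 higher in S3 against W, beside 7.51%, 9.22% and 13.3% of all tested genes. GRMZM2G150906, a stachyose synthase, had 1.20 and 1.24 FPKM in W, 116 and 58.2 FPKM in S1, and 20.8 and 51.4 FPKM in S3, which is the order of GRMZM2G045664: S1 highest, S3 between and W lowest.

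The genes whose profiles were nearest to those of the members were sought by the root mean square distance between log2(FPKM + 1) values over the 6 libraries, each gene centred on its mean. The nearest gene to GRMZM2G045664 was GRMZM2G426678, without a description, at a distance of 0.12 log2 units, with 2.04 and 1.99 FPKM in W, 24.2 and 20.6 FPKM in S1, and 4.68 and 7.31 FPKM in S3. GRMZM2G472248 had its nearest gene, GRMZM2G167794, at 0.27, and GRMZM2G010868 had GRMZM2G414813 at 0.21, both described as hypothetical proteins. The closest gene to GRMZM2G146004, GRMZM5G860607, was at 0.36, and the next, GRMZM2G007928, a Bowman-Birk type trypsin inhibitor, at 0.45. Distances on this scale can be larger for genes with larger changes, so nothing is read from their size. This inhibitor had 18.9 and 18.8 FPKM in W, 58.3 and 74.8 FPKM in S1, and 2.82 and 6.18 FPKM in S3. Its S3 values lay below W, an order that the search for profiles near GRMZM2G146004 favours.

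The low and flat members had nearest genes at distances up to 0.115, hardly below the 0.119 of GRMZM2G045664. Genes with small or compressed changes on this scale have near neighbours by arithmetic, so nothing is read from the closeness. GRMZM2G412436 had GRMZM2G429254, a SAUR family member, at 0.115, GRMZM2G152781 had GRMZM2G105250 at 0.10, GRMZM2G072890 had GRMZM2G071413 at 0.09, and GRMZM2G000777 had GRMZM2G078691, a subunit of nuclear transcription factor Y, at 0.04. These distances are descriptions over 6 libraries, and no test was run on them.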

How the data were processed

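Leaf RNA of 6 libraries was analysed, 2 each of W, S1 and S3, grouped by the sample titles. According to the study's methods, the authors mapped reads with bowtie and tophat to B73 RefGen_v2 and computed FPKM with cuffdiff on the Filtered Gene Set; the submitters' processing notes name CASAVA 1.8.2, TopHat 0.12.8 and Cuffdiff. The deposited files hold 1 FPKM value per gene and library. Deposited fold changes and q-values are the authors' own comparisons and were not used. The S3 libraries came from another cuffdiff run than W and S1, and were multiplied by 0.9933, a factor taken from S1, which is given from both runs (its median over genes, with 91.1% of genes within 0.5%). Levels are printed as deposited, and ratios and tests that involve S3 use the multiplied values.

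The test was limma 3.58.1 in R 4.3.3 (lmFit, eBayes with a mean-variance trend) on log2(FPKM + 1), in 1 fit of all 6 libraries, and it was tested on simulated data. Figures and ratios used matplotlib 3.10.9, scipy 1.17.1, pandas 2.3.3 and numpy 2.4.6 in Python 3.11.15. Reads behind 7 of the 8 genes were inferred as the smallest whole numbers (within 0.05) that fit the FPKM steps and the libraries' relative depth, which values under 0.3 FPKM gave as between 0.876 and 1.05 of the worth of 1 read in W replicate 1; true reads may be a multiple, and no fit was found for GRMZM2G010868. Total reads are not in the deposited values. Library preparation did not mark strand as far as the sources state it, so antisense transcripts cannot be told apart.

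The members and lists were chosen with earlier results of these data known. Lists were matched by words in the deposited descriptions, which 19801 genes lack. Named genes were the 8 members, from the dehydrin list up to 6 genes, and from each other list the gene, with the largest change of S3 against W among those called without overlap, and the nearest profiles. Of the 8 identifiers, 6 were found among the synonyms of RefSeq genes on another genome build, which served for names only, so no coordinates or sequences are given. The 17 alternatives covered the added constant, filter, scaling, thresholds, libraries left out and a replicate block.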

Additional observations from a re-analysis of the deposited data

How the results depend on the processing

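With 2 libraries per condition, the tests rest on few samples, and genes under about 1 FPKM are compressed by the added constant. Over the 17 alternatives, the number of members called ranged between 4 and 5 in S1 against W and between 5 and 6 in S3 against S1. These counts come from the 5 genes chosen for those changes, plus GRMZM2G010868 in S3 against S1. Nothing is read from them, here or below. In S3 against W the number ranged between 3 and 4, beside 3595 to 8268 of all genes tested, and no called value of a member reversed. Leaving out 1 library at a time gave 4 to 5, 5 to 6 and 3 members in these comparisons. For the genes of the 5 further lists, 12 were called in S3 against S1, against 7 without the filter on low values, 7 at an adjusted p of at most 0.01, and 7 to 13 with 1 library left out, the lowest without S1 replicate 1; the cause was not tested. With the filter, the 5 further lists held 4, 5, 4, 14 and 3 tested genes, in the order in which they were described above. Calls over all tested genes in S3 against S1 numbered 3701, against 3349 without the filter and 3140 at an adjusted p of at most 0.01. Whether the lists only followed this drop was not tested. Without the fold-change threshold, 3214, 7467 and 8268 of all tested genes were called in S1 against W, S3 against S1 and S3 against W, compared with 1820, 3701 and 4424. In S3 against W, 60.4% of the calls were higher with FPKM as deposited, compared with 47.8% after upper-quartile scaling and 49.3% after quantile normalization. In S1 against W the median of all tested genes was -0.01, compared with -0.13 and -0.12. Replicate numbers mark read length, and deviations of same-numbered libraries correlated by 0.14, -0.09 and 0.06 across genes, so the numbers were not taken as pairs. With a replicate block in the fit, limma called 3 members in S3 against W, as without the block. Of all tested genes, it then called 1784 in S1 against W, 3669 in S3 against S1 and 4406 in S3 against W.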
